A study of Mus musculus with 33 samples.

Results

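The small leucine-rich proteoglycans are a family of secreted matrix proteins, and 9 of them were followed here across mammary cells, organoids and tumors of the mouse: Lum, Kera, Dcn, Bgn, Fmod, Ogn, Omd, Prelp and Aspn. Members were taken by gene symbol, 9 of 30168 symbols in 4 deposited expression tables. The table of guide RNA libraries has rows for 8 of them, without Kera. The study measured RNA by sequencing in 33 libraries, around the transcriptional repressor TRPS1, a zinc finger protein that recognises GATA motifs, and the adhesion protein E-cadherin, encoded by Cdh1.

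Each member has a horseshoe-shaped core of leucine-rich repeats, and most bind collagen fibrils and influence their width and spacing. Decorin (Dcn), biglycan (Bgn) and asporin (Aspn) form class I. Lumican (Lum), keratocan (Kera), fibromodulin (Fmod), PRELP (Prelp) and osteomodulin (Omd) form class II, several of them carriers of keratan sulfate, and osteoglycin (Ogn) belongs to class III. In the mammary gland, fibroblasts of the stroma are the main known source of decorin and lumican.

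The 12 organoid libraries came from primary mammary organoids grown in matrigel and transduced with AdCre, an adenovirus that delivers Cre recombinase. They form 6 groups of 2 libraries, from 3 genotypes at day 14 and at day 28. The controls were Cdh1F/F;Trps1+/+ (called Trps1+/+ organoids), and both other genotypes had floxed Trps1, either as Cdh1+/F;Trps1F/F (called Cdh1+/F organoids) or as Cdh1F/F;Trps1F/F. All organoids thus carried floxed Cdh1, the controls included, and Cdh1+/F organoids differ from the controls at both genes. The 11 mammary tumors came from mice in which Cre is driven by the promoter of the milk protein gene Wap, 3 from WAP-cre;Cdh1F/F;Trps1+/+ mice and 8 from 6 WAP-cre;Cdh1F/F;Trps1F/F mice. The labels place the 8 tumors in subgroups 1, 2 and 3, with 4, 2 and 2 tumors, without saying how, and 1 mouse had tumors in subgroups 1 and 3. The other 10 libraries were from HC11, a mouse mammary epithelial cell line: 3 exposed for 24 h to the histone deacetylase inhibitor trichostatin A (TSA, 300 nM), 3 given DMSO, 2 labelled sgTrps1 #1 and 2 labelled sgScr #1, each arm with 1 guide. Nothing says that cell line or organoid replicates were separate cultures, so p-values there measure the spread between these libraries, which may be technical.

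Levels are given as log2(normalized count + 1) as deposited, differences as log2 fold changes on that scale, and a gene counts as called when its adjusted p in limma, across all kept genes, was under 0.05. Libraries held 14858175 to 38773073 reads. Trps1 was lower in both floxed organoid genotypes than in Trps1+/+ organoids, at 9.45 to 10.04 in Cdh1+/F organoids and 11.05 to 11.39 in Cdh1F/F;Trps1F/F against 13.51 to 13.96. Cdh1 RNA was at 13.04 to 13.94 in all organoid libraries: at day 14 it was at 13.08 to 13.09 in Trps1+/+, 13.50 to 13.52 in Cdh1+/F organoids and 13.58 to 13.60 in Cdh1F/F;Trps1F/F. In the libraries labelled sgTrps1, Trps1 RNA was not lower than in sgScr (13.85 to 13.91 against 13.79 to 13.89). In tumors, Trps1 ranged from 11.46 to 12.94 in Trps1+/+ and from 9.90 to 12.63 in Trps1F/F, where both tumors of subgroup 3 and the highest of subgroup 1 (11.88) lay within the Trps1+/+ range.

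The genes lie in 4 places of the GRCm38 genome, and 2 of these are clusters. Dcn (chr10:97479609-97518143), Lum (chr10:97565128-97572703) and Kera (chr10:97606879-97613692) follow each other on the plus strand, with the related gene Epyc next to them. Aspn (chr13:49544443-49567565), Omd (chr13:49582462-49592822) and Ogn (chr13:49608046-49624501) do the same on chromosome 13, inside the gene Cenpp on the other strand. Prelp (chr1:133910304-133921414, minus strand) and Fmod (chr1:134037254-134048277, plus strand) are neighbours on chromosome 1, and Bgn is at chrX:73483602-73495933 on the plus strand. Whether the libraries kept the strand is not stated, so reads of Prelp, which shares 350 exon bases (9.68% of its exons) with the antisense gene Gm15851, cannot be fully told apart from that gene.

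TRPS1 is known to recognise GATA motifs, so the 250 bases before each RefSeq start (GRCm38.p6) were searched on both strands for AGATAA, its variant with a final G (AGATAG), its variant with a first T (TGATAA) and the variant with both changes (TGATAG). RefSeq promoters were at hand for 7 of the 9 members, without Dcn and Lum. A match was found in 1 of the 7, Fmod, where AGATAA begins 157 bases before the start, against 8718 of 32851 promoters (26.5%) in the whole table. A match is only a run of letters, and its absence says nothing about binding. The promoter of Fmod (chr1:134037004-134037253, plus strand) is shown for this match, set in capitals, and because Fmod stood apart from the family in organoids. Those of Ogn (chr13:49607765-49608014, plus strand) and Bgn (chrX:73483351-73483600, plus strand) are shown because these members followed each other most closely across the organoid libraries.
Fmod: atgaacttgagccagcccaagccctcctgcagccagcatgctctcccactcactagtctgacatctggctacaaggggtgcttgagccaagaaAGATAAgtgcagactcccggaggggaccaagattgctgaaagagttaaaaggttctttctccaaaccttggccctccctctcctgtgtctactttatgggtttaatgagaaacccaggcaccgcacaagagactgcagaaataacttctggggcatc
Ogn: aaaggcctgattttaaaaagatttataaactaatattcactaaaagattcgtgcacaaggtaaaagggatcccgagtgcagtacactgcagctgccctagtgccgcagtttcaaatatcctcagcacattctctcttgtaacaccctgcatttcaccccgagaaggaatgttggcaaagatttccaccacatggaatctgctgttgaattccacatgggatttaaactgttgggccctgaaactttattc
Bgn: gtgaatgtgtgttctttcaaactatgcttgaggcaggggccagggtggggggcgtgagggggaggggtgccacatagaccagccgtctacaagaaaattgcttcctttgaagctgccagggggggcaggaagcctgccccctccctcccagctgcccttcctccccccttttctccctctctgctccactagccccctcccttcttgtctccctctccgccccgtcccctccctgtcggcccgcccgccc

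In organoids of both time points, most of the family was lower in Cdh1F/F;Trps1F/F and higher in Cdh1+/F organoids than in Trps1+/+ organoids. At day 14, 8 of the 9 members were called lower in Cdh1F/F;Trps1F/F than in Trps1+/+, and the other, Fmod, was called higher. Of all 15860 genes tested, 17.9% were called lower and 14.5% higher. At day 28, 7 members were called lower, against 23.4% of all genes. The median difference of the members was -2.22 at day 14 (-1.89 with Kera, which had no reads in Cdh1F/F;Trps1F/F, at its bound) and -2.28 at day 28, beside medians of -0.014 and -0.036 over all genes. Against the same Trps1+/+ libraries, Cdh1+/F organoids had 7 members called higher at day 14 (18.9% of all genes) and 9 at day 28 (28.6%), with medians of 2.00 and 2.75 beside 0.015 and 0.026. These comparisons share their controls. Kera was kept for testing only through its reads in Cdh1+/F organoids, so its difference between them and either other genotype follows from that choice and supports nothing. Of the other 8 members, 6 were called higher in Cdh1+/F organoids at day 14 and 8 at day 28 (medians of 1.89 and 2.66). In the authors' deposited tables for Cdh1F/F;Trps1F/F against Trps1+/+, 6 members were lower at each day with an adjusted p under 0.05, and 1, Fmod, was higher at day 14.

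**Figure D1:**
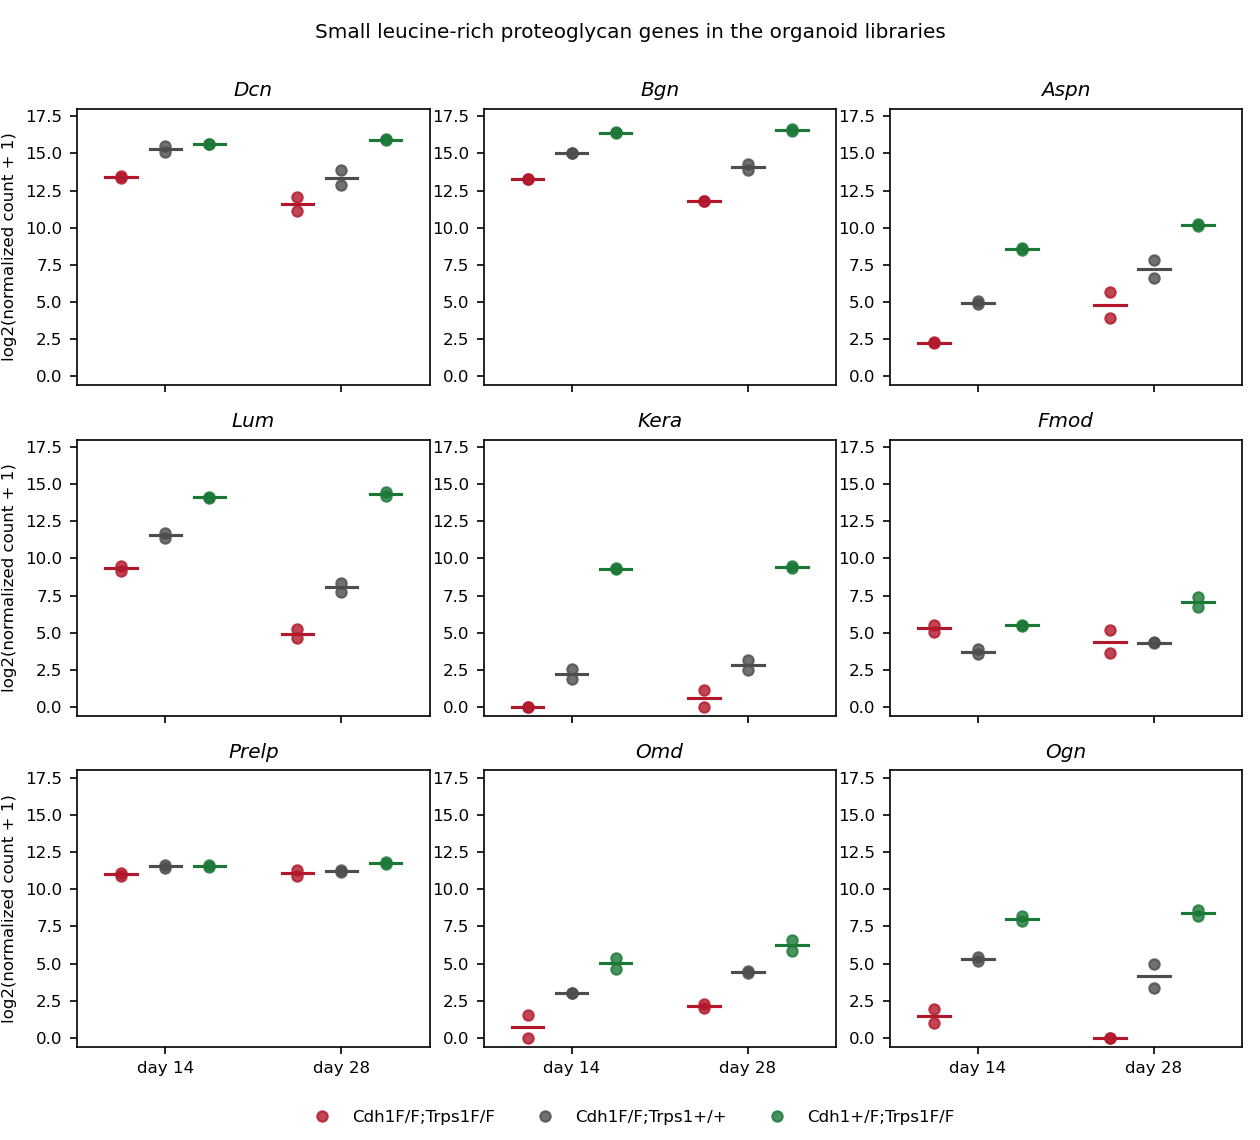
Level of each of the 9 members in the 12 organoid libraries, as log2(normalized count + 1), by genotype and day, with 1 point per library. For Lum, Bgn, Ogn, Aspn and Omd the Cdh1F/F;Trps1F/F points lie under the Trps1+/+ points and the Cdh1+/F;Trps1F/F points above them at both days.

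Class I held the most abundant members. Per kilobase of exon, Trps1+/+ organoids at day 14 had 6982 normalized counts of Dcn (6035 to 7928, n = 2) and 5509 of Bgn, ahead of Lum with 1228, Prelp with 831 and the other 5 members with 14.9 or fewer. Next in that order, Ogn and Aspn overlapped between libraries (13.5 to 16.3 and 11.8 to 13.6). In Cdh1F/F;Trps1F/F organoids at day 28 the order had changed: Prelp, Bgn and Dcn were at 613, 595 and 554, which did not differ beyond their spread, and Lum was at 12.3.

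Dcn, whose decorin regulates fibril width and binds TGF-beta, was at 15.50 and 15.11 in Trps1+/+ organoids at day 14, at 15.64 and 15.66 in Cdh1+/F organoids and at 13.32 and 13.50 in Cdh1F/F;Trps1F/F. At day 28 the same genotypes had 12.84 and 13.87, 15.91 and 15.94, and 11.12 and 12.05. The Cdh1F/F;Trps1F/F libraries were lowest at each day with no overlap. The difference from Trps1+/+ was -1.89 (SE 0.30, limma adjusted p = 0.000347) at day 14 and -1.77 (SE 0.30, adjusted p = 0.000409) at day 28. The difference of Cdh1+/F organoids did not pass at day 14 (0.35, 95% interval -0.30 to 1.00, adjusted p = 0.388) and was 2.57 at day 28 (adjusted p = 1.2e-05).

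Bgn encodes biglycan, a matrix component that can also signal through toll-like receptors when released. At day 14 it was at 15.04 in both Trps1+/+ libraries, at 16.37 and 16.43 in Cdh1+/F organoids and at 13.28 in both Cdh1F/F;Trps1F/F libraries. At day 28 it was at 13.91 and 14.31, 16.65 and 16.52, and 11.83 and 11.82. The genotypes were thus fully separated at each day, with close replicates. The log2 fold change of Bgn in Cdh1F/F;Trps1F/F was -1.75 (SE 0.12, adjusted p = 3.42e-07) at day 14 and -2.28 (SE 0.12, adjusted p = 3.21e-08) at day 28. It was higher in Cdh1+/F organoids by 1.36 at day 14 and 2.47 at day 28 (adjusted p = 1.48e-06 and 3.65e-09).

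Aspn, whose asporin binds TGF-beta in cartilage, had few reads in the controls at day 14. Its levels were 4.85 and 5.05 in Trps1+/+, 8.66 and 8.52 in Cdh1+/F organoids and 2.25 and 2.29 in Cdh1F/F;Trps1F/F at that day. At day 28 they were 6.64 and 7.80, 10.22 and 10.13, and 3.95 and 5.69. No genotypes overlapped within a day, and each genotype was higher at day 28. Against Trps1+/+, Aspn was at -2.68 (SE 0.45, adjusted p = 0.000577) and -2.40 (adjusted p = 0.000932) in Cdh1F/F;Trps1F/F for days 14 and 28. The same values were 3.64 (adjusted p = 4.18e-05) and 2.96 (adjusted p = 0.000127) for Cdh1+/F organoids.

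In class II, Lum encodes lumican, a keratan sulfate proteoglycan of stroma and cornea. Lum was at 11.70 and 11.39 in Trps1+/+, 14.10 and 14.11 in Cdh1+/F organoids and 9.17 and 9.49 in Cdh1F/F;Trps1F/F at day 14. At day 28 it was at 7.77 and 8.34, 14.50 and 14.23, and 4.63 and 5.23, the last from 23 and 29 reads. Lum thus stayed high in Cdh1+/F organoids while it was far lower at day 28 than at day 14 in both Cdh1F/F genotypes. The difference of Cdh1F/F;Trps1F/F from Trps1+/+ was -2.22 (SE 0.21, adjusted p = 5.2e-06) at day 14 and -3.12 (SE 0.21, adjusted p = 2.26e-07) at day 28. That of Cdh1+/F organoids was 2.56 (adjusted p = 8.82e-07) and 6.31 (SE 0.21, adjusted p = 2.71e-10).

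Kera, a proteoglycan best known from the cornea, was near the limit of detection outside Cdh1+/F organoids. The 2 Trps1+/+ libraries had 5 and 3 reads at day 14 and 7 and 9 at day 28, and Cdh1F/F;Trps1F/F had 0 and 0, then 0 and 1. Cdh1+/F libraries had 594 and 538 reads at day 14 and 430 and 806 at day 28 (levels of 9.27, 9.34, 9.34 and 9.49). Kera was at least 2.67-fold lower in Cdh1F/F;Trps1F/F than in Trps1+/+ at day 14, counted against 3 reads over the group. At day 28 the ratio was 10.8 with a 95% counting interval of 1.67 to 452, which covers counting error only. Both differences passed in limma (fitted values -2.23 and -2.25, adjusted p = 0.00147 and 0.001). In the authors' deposited tables they did not, at -0.85 (adjusted p = 0.198) and -1.35 (adjusted p = 0.0728).

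Omd, which encodes a proteoglycan of mineralised matrix, had few reads: 7 and 8 in Trps1+/+ against 2 and 0 in Cdh1F/F;Trps1F/F at day 14, a ratio of 7.38 (1.72 to 66.5). Cdh1+/F organoids had 39 and 20 reads at that day (levels of 5.37 and 4.65). At day 28 the levels of Trps1+/+, Cdh1+/F organoids and Cdh1F/F;Trps1F/F were 4.36 and 4.52, 6.58 and 5.86, and 2.03 and 2.26. The genotypes did not overlap at either day. Differences from Trps1+/+ were -2.25 (adjusted p = 0.00400) and -2.30 (adjusted p = 0.00258) in Cdh1F/F;Trps1F/F, and 2.00 (adjusted p = 0.00727) and 1.77 (adjusted p = 0.00945) in Cdh1+/F organoids. The authors' deposited tables have Omd in Cdh1F/F;Trps1F/F at -1.07 (adjusted p = 0.122) for day 14 and -1.92 (adjusted p = 0.00515) for day 28. The differences of Cdh1+/F organoids fell short without replicate a of Cdh1+/F organoids, at 1.64 (adjusted p = 0.0720) at day 14 and 1.41 (adjusted p = 0.0879) at day 28.

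Fmod, whose fibromodulin shapes collagen fibrils in tendon, did not share the lower levels of the other members. At day 14 it was at 3.90 and 3.54 in Trps1+/+ and at 5.08 and 5.51 in Cdh1F/F;Trps1F/F, beside 5.48 and 5.51 in Cdh1+/F organoids. At day 28 it was at 4.36 and 4.28, 5.17 and 3.63, and 7.42 and 6.73 in the same order. Fmod was thus higher in both floxed genotypes at day 14, and at day 28 the 2 Cdh1F/F;Trps1F/F libraries lay on either side of Trps1+/+. The difference of Cdh1F/F;Trps1F/F was 1.57 (SE 0.43, adjusted p = 0.0129) at day 14. It rested on 12 to 46 reads per library and was 1.40 (adjusted p = 0.0787) without Trps1+/+ replicate b and 1.36 (adjusted p = 0.0983) without Cdh1F/F;Trps1F/F replicate 2. At day 28 it was 0.08 (95% interval -0.85 to 1.00, adjusted p = 0.905), and -0.70 without Cdh1F/F;Trps1F/F replicate 1. Fmod was higher in Cdh1+/F organoids by 1.77 (adjusted p = 0.00591) and 2.75 (adjusted p = 0.000146).

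Prelp, a heparin-binding protein that links basement membrane to collagen, varied least. It lay between 10.88 and 11.83 in all 12 libraries. At day 14 it was at 11.46 and 11.64 in Trps1+/+, 11.50 and 11.64 in Cdh1+/F organoids and 11.08 and 10.92 in Cdh1F/F;Trps1F/F. The day 28 values were 11.27 and 11.18, 11.83 and 11.68, and 11.32 and 10.88. The Cdh1F/F;Trps1F/F libraries were separate from Trps1+/+ at day 14 only (-0.55, SE 0.13, adjusted p = 0.00482), and without Cdh1F/F;Trps1F/F replicate 2 this value was -0.47 (adjusted p = 0.0547). At day 28 the difference was -0.13 (95% interval -0.41 to 0.14, adjusted p = 0.431). It depended on the library left out: -0.35 (adjusted p = 0.0279) without Cdh1F/F;Trps1F/F replicate 1 and 0.09 without replicate 2. Prelp in Cdh1+/F organoids was at 0.02 (adjusted p = 0.925) at day 14, a value that was -0.02 once all libraries had a common median, and at 0.53 (adjusted p = 0.00350) at day 28.

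Ogn, the class III member, encodes osteoglycin, also called mimecan. It was at 5.42 and 5.16 in Trps1+/+, 8.18 and 7.89 in Cdh1+/F organoids and 1.93 and 0.98 in Cdh1F/F;Trps1F/F on day 14. On day 28 it was at 3.39 and 4.95, 8.63 and 8.22, and at 0 in both Cdh1F/F;Trps1F/F libraries. No genotypes overlapped within a day. Ogn was lower in Cdh1F/F;Trps1F/F at day 14 (-3.83, SE 0.47, adjusted p = 4.56e-05). At day 28, with 48 reads in Trps1+/+ and none in Cdh1F/F;Trps1F/F, it was at least 11.5-fold lower, against 3 reads over the group (adjusted p = 1.47e-05). Ogn was higher in Cdh1+/F organoids by 2.74 (adjusted p = 0.000527) and 4.26 (adjusted p = 6.96e-06).

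**Figure D2:**
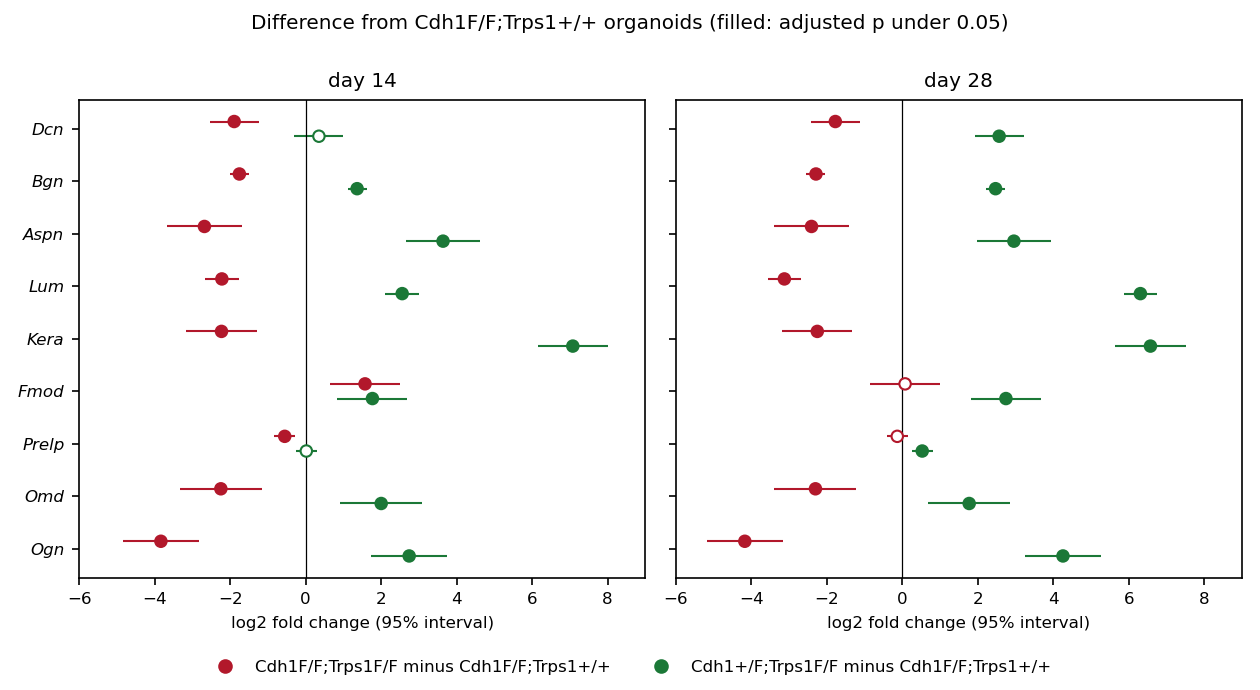
Log2 fold change of each member with its 95% interval from limma, against Trps1+/+ organoids of the same day, for Cdh1F/F;Trps1F/F and Cdh1+/F;Trps1F/F. Apart from Fmod and Prelp, all Cdh1F/F;Trps1F/F intervals lie under 0, and all day 28 intervals of Cdh1+/F;Trps1F/F lie above it.

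Set directly against each other, the 2 genotypes with floxed Trps1 differed in 7 of the 8 members other than Kera at day 14 and in all 8 at day 28, each lower in Cdh1F/F;Trps1F/F, where 21.6% and 29.0% of all genes were called lower. Kera, kept only through the higher genotype of this pair, is left out of these counts. The exception at day 14 was Fmod (-0.20, 95% interval -1.12 to 0.73, adjusted p = 0.750), which was 0.02 without Cdh1F/F;Trps1F/F replicate 1 and 0.41 under quantile normalization. At day 28 the difference was -9.43 for Lum, -4.76 for Bgn and -4.34 for Dcn (adjusted p = 5.31e-12, 1.22e-11 and 5.70e-08). Aspn was at -6.32 and -5.36 at days 14 and 28, and Prelp at -0.57 and -0.66. By its reads alone Kera was at least 441-fold lower at day 14, and Ogn was at least 201.4-fold lower at day 28. These genotypes differ in Cdh1 alleles, and Trps1 RNA itself was lower in Cdh1+/F organoids, so the parts of both cannot be told apart.

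Time in culture changed individual members rather than the family as a whole. From day 14 to day 28 in Trps1+/+ organoids, Lum (-3.49), Dcn (-1.95) and Bgn (-0.92) fell and Aspn rose by 2.27 (adjusted p = 2.41e-07, 0.000470, 0.0001 and 0.00291), 4 members beside 25.9% of all genes. Ogn did not pass at -1.12 (adjusted p = 0.0981), but did without Trps1+/+ day 28 replicate b (-1.90, adjusted p = 0.00942). Omd did not pass at 1.44 (adjusted p = 0.0517) and passed under 5 alternatives. In the same libraries the summed fibroblast markers were 91769 to 96491 normalized counts at day 14 and 114222 to 117191 at day 28. Sums of several other lists were lower at day 28, among them collagens (42504 to 51753 against 73996 to 98243), adipocyte markers (5299 to 9629 against 19794 to 20474) and macrophage markers (3145 to 3542 against 8292 to 8709). Skeletal muscle (5241 to 7733 against 8745 to 11511) and pericyte markers (4736 to 5481 against 6040 to 7299) were lower too. So were basal and lymphocyte markers. Bone and cartilage markers were higher at day 28 (8875 to 9306 against 5192 to 5313), and luminal and endothelial sums overlapped. The part of these lists in the change of the members was not tested.

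In Cdh1F/F;Trps1F/F, 6 members were called, beside 35.4% of all genes. Lum fell by 4.40, Dcn by 1.82 and Bgn by 1.46 on the log2 scale (adjusted p = 1.14e-07, 0.000732 and 4.86e-06), and Aspn rose by 2.55 (adjusted p = 0.00122). Ogn went from 4 reads over the group to 0, at least 1.10-fold lower (adjusted p = 0.0285). Omd went from 2 to 6 reads, a ratio of 3.57 (0.638 to 36.1, adjusted p = 0.0475). The calls of Ogn and Omd rest on these few reads, and each was lost in 3 of the 4 fits that left out 1 of these libraries. Ogn had an adjusted p of 0.224 without day 14 replicate 1 and of 0.0621 and 0.0902 without day 28 replicates 1 and 2. Omd had one of 0.385 without day 14 replicate 2 and of 0.0755 and 0.167 without the same day 28 replicates. In Cdh1+/F organoids the 2 members called were Fmod (1.58, adjusted p = 0.0112) and Aspn (1.59, adjusted p = 0.0145), beside 40.8% of all genes. Lum there was at 0.26 (adjusted p = 0.336). Aspn lost its call when any of the 4 libraries was left out (adjusted p = 0.0594 to 0.0697), and Fmod without replicate a of day 14 (0.0607) or of day 28 (0.0969).

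The difference between Cdh1F/F;Trps1F/F and Trps1+/+ itself changed from day 14 to day 28 for 2 members, Lum (-0.90, SE 0.29, adjusted p = 0.0486) and Bgn (-0.53, SE 0.16, adjusted p = 0.0423), beside 17.9% of all genes. Both differences were more negative at the later day. These calls are close to the threshold: Lum passed only without Trps1+/+ day 28 replicate a or Cdh1F/F;Trps1F/F day 28 replicate 2, and Bgn only without the former, when each of the 8 libraries was left out in turn. The values then ran from -1.21 to -0.60 for Lum (adjusted p up to 0.158) and from -0.73 to -0.33 for Bgn (adjusted p up to 0.146). Fmod, at -1.5 (adjusted p = 0.103), did not pass, except without Cdh1F/F;Trps1F/F day 28 replicate 1 (-2.27, adjusted p = 0.00760). Prelp, at 0.42 (adjusted p = 0.120), did not pass, except without replicate 2 of that group (0.64, adjusted p = 0.0180).

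Other genes of the same biology moved in organoids as well. All list counts in organoids below stand beside the shares of all genes called against Trps1+/+. In Cdh1F/F;Trps1F/F these were 17.9% lower and 14.5% higher at day 14, then 23.4% and 19.9% at day 28. In Cdh1+/F organoids they were 18.9% higher and 17.4% lower at day 14, then 28.6% and 24.7% at day 28. In Cdh1F/F;Trps1F/F against Trps1+/+ at day 14, 3 of 9 further leucine-rich proteoglycan genes were lower and none higher: Podn (-2.46), Epyc (-1.96) and Tsku (-1.35). Of 14 enzymes that build chondroitin and dermatan sulfate, the chains carried by decorin and biglycan, 9 were lower and none higher, among them the chain polymerase Chsy1 (-1.31) and the sulfotransferase Chst11 (-1.08). Of 10 keratan sulfate enzymes 2 were lower, a share near that of all genes (17.9%). Of 7 enzymes of the linkage region that starts each chain, 3 were higher and none lower.

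At day 28 the further family members showed 5 lower of 9, with Podn at -2.62, Tsku at -1.54 and Chadl at -1.09, and 10 of 14 chondroitin and dermatan sulfate enzymes were lower, with Chsy1 at -1.34 and Chst11 at -1.0. Against the same controls, Cdh1+/F organoids had 4 higher and 3 lower of 9 further members at day 14 and 6 higher and 2 lower at day 28. Epyc, the neighbour of Kera, was at 4.40 and 6.44, Podn at 2.25 and 3.86, and Chadl at -1.33 and -2.72. Of the chondroitin and dermatan sulfate enzymes, 4 were higher and 2 lower at day 14, and 8 and 2 at day 28, with Csgalnact1, which starts chondroitin chains, at 2.56.

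Fibrillar and associated collagens, which the proteoglycans bind, were mostly lower and mostly higher in the same genotypes. In Cdh1F/F;Trps1F/F at day 14, 10 of 14 collagen genes were lower and 1 higher, with a median of -1.40, and at day 28 the counts were again 10 and 1 with a median of -1.83. Col3a1 was at -3.27 and -2.61 and Col1a2 at -2.57 and -3.73 at the 2 days. Of the same 14 in Cdh1+/F organoids, 11 were higher and 1 lower at day 14 (median 2.94), and 11 and 3 at day 28 (median 2.75). Col3a1 was there at 4.29 and 4.72, while Col2a1, the cartilage collagen, was at -6.21 at day 28. Proteases that process or cut these proteins and the collagens had 8 lower and 1 higher of 11 in Cdh1F/F;Trps1F/F at day 14 and 9 and 1 at day 28. For Cdh1+/F organoids these counts were 6 higher and 1 lower, then 8 and 2. The aggrecanase Adamts5 was at -1.44 and -1.28 in the former and at 1.79 and 3.58 in the latter. Mmp13, a collagenase, was at -2.78 and -1.63 in Cdh1F/F;Trps1F/F, where the gelatinase Mmp2 was at -2.02 at day 28.

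Of 13 genes for receptors of the proteoglycans, 8 were lower and 3 higher in Cdh1F/F;Trps1F/F at day 14, among them Egfr (-0.92), a receptor that decorin binds, and 5 lower and 3 higher at day 28. In Cdh1+/F organoids, 6 were lower and 2 higher at day 14 and 4 lower and 6 higher at day 28, where Tlr2, a toll-like receptor that biglycan binds, was at -2.24. Receptors called higher were near the share of all genes in Cdh1F/F;Trps1F/F at day 28 (19.9%) and in Cdh1+/F organoids at day 14 (18.9%). Of 6 TGF-beta genes, 4 were lower and 1 higher in Cdh1F/F;Trps1F/F at day 14 and 3 lower and 1 higher at day 28. For Cdh1+/F organoids the counts were 3 higher and 2 lower, then 4 and 1.

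Markers of several other cell types moved with the members, while those of some did not. In bulk RNA, fewer cells of a type and less RNA per cell cannot be told apart. Of 17 fibroblast markers, 14 were lower and none higher in Cdh1F/F;Trps1F/F at day 14 (median -1.43), with Prrx1 at -1.85, Fap at -2.68 and Thy1 at -1.43, and 14 lower and 1 higher at day 28 (median -1.72), with Prrx1 at -1.62 and Mfap5 at -2.77. In Cdh1+/F organoids, 13 were higher at day 14 (median 1.59), with Thy1 at 3.33 and Pdgfra at 1.85, and 16 at day 28 (median 2.14), with Thy1 at 3.74 and Prrx1 at 2.62, and none was lower. The summed fibroblast markers were 57415 to 59039 normalized counts in Cdh1F/F;Trps1F/F, 91769 to 96491 in Trps1+/+ and 173940 to 177145 in Cdh1+/F organoids at day 14. At day 28 the sums were 56048 to 68417, 114222 to 117191 and 206918 to 228821. No fibroblast marker was at 0 in any organoid group. The list is not particular to fibroblasts, as its sum was 27256 to 29470 in the epithelial HC11 cells under DMSO, in a table normalized on its own.

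Lists of muscle, fat, macrophage, endothelial and pericyte markers had the same order of genotypes. Endothelial sums at day 28 were 935 to 1223 in Cdh1F/F;Trps1F/F, 1400 to 1466 in Trps1+/+ and 1938 to 2023 in Cdh1+/F organoids. Pericyte sums were 3730 to 4227, 4736 to 5481 and 7786 to 10475 in the same order. Both sums were ordered in this way at day 14 too, without overlap. Of 10 skeletal muscle markers, 9 were lower in Cdh1F/F;Trps1F/F at day 14 and 10 at day 28, and 7 and 10 were higher in Cdh1+/F organoids, with none in the other direction. Their sum at day 28 was 817 to 1316 in Cdh1F/F;Trps1F/F, 5241 to 7733 in Trps1+/+ and 49626 to 63521 in Cdh1+/F organoids. Of 8 adipocyte markers, 3 and 6 were lower in the former and 1 and 8 higher in the latter, and their sum at day 28 was 1603 to 2415, 5299 to 9629 and 53092 to 55024, with Cfd at 0 in both Cdh1F/F genotypes. Of 10 macrophage markers tested, 8 were lower in Cdh1F/F;Trps1F/F at each day, and 10 and 6 were higher in Cdh1+/F organoids, with sums of 2540 to 3091, 8292 to 8709 and 20923 to 21542 at day 14. Luminal epithelial markers went the other way in Cdh1F/F;Trps1F/F, with 9 of 14 higher and 2 lower at day 14 and 8 and 1 at day 28. Of these markers in Cdh1+/F organoids, 4 were higher and 2 lower at day 14, and 3 and 6 at day 28. Basal sums had the opposite order to the members at day 14, at 104187 to 107004 in Cdh1F/F;Trps1F/F, 83106 to 84219 in Trps1+/+ and 48055 to 51784 in Cdh1+/F organoids. Bone and cartilage sums did not follow the members either, at 8612 to 9054, 5192 to 5313 and 5617 to 6185 for the same genotypes at day 14. The part of these cell types in the differences of the members was not tested.

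**Figure D3:**
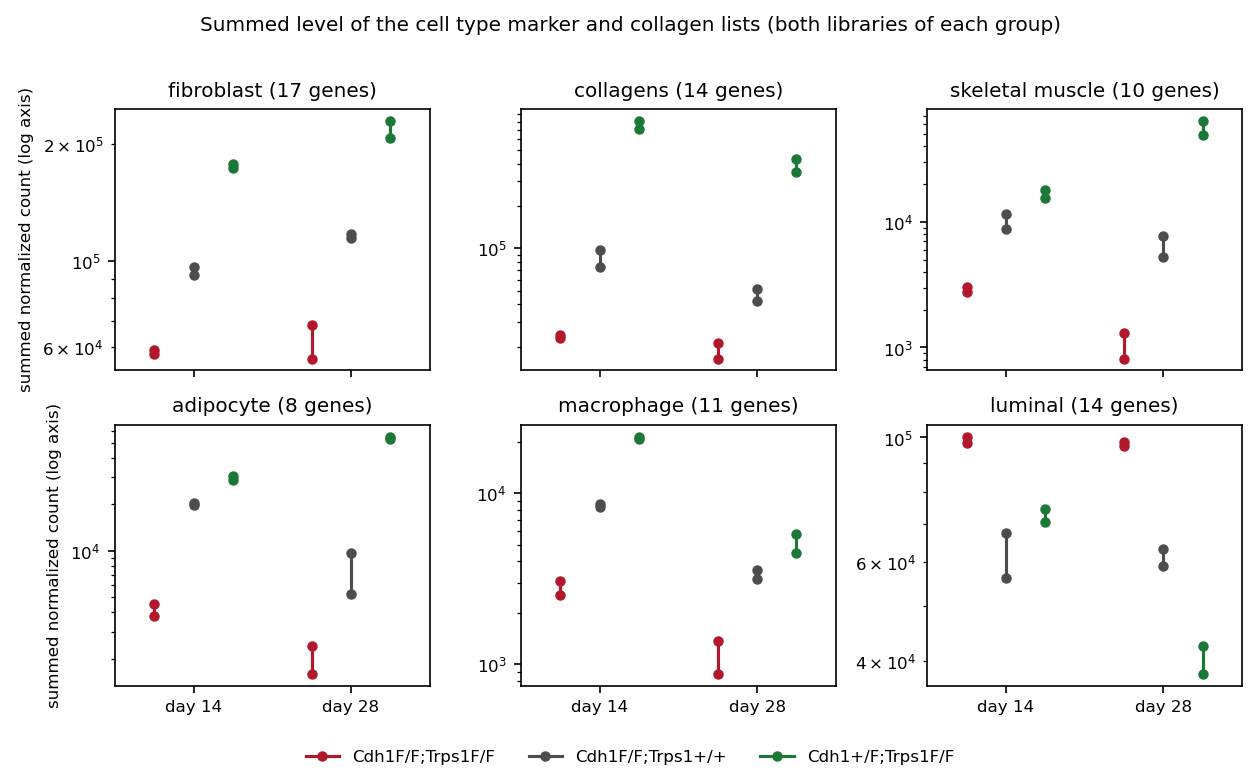
Summed normalized counts of marker lists in each organoid library on a log axis, by genotype and day. The fibroblast sum is lowest in Cdh1F/F;Trps1F/F and highest in Cdh1+/F;Trps1F/F at both days, and the luminal sum is highest in Cdh1F/F;Trps1F/F.

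Across the 12 organoid libraries, which share 6 groups, Bgn and Ogn followed each other most closely of the 36 member pairs (Pearson r = 0.987, Spearman rho = 0.991), and Dcn and Fmod least (r = 0.410, rho = 0.517). These values describe the order of the groups and carry no test. Genes most like a member were ranked by Pearson r among kept genes. Other members and symbols of clones, predicted genes, pseudogenes and mitochondrial genes were left out. Bgn was most like B3gnt9 (0.996), Gpx3 (0.994), Podn (0.994), Htra3 (0.994) and Col1a2 (0.993). Lum was most like Svep1 (0.995), Serpina3c, Mmp2 (0.992), Ndn and Fxyd1 (0.990), and Dcn most like Dact1 (0.992), Prr16, Clmp, Hoxd8 and Emx2 (0.989).

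In tumors, the comparison of Trps1F/F with Trps1+/+ called none of the 9 members, and 0% of 15423 genes, where 805 had an unadjusted p under 0.05. The unit was the mouse, 6 against 3, with tumors of a mouse averaged. Lum was at 13.86, 13.30 and 11.53 in the Trps1+/+ tumors, and its 8 Trps1F/F tumors ran from 9.10 to 13.55, with a difference of -1.84 (SE 0.90, adjusted p = 0.800). Aspn was at 12.41, 11.60 and 11.47 and ran from 8.09 to 12.43 (-1.55, adjusted p = 0.800). Prelp was at 11.89, 11.04 and 11.03 and ran from 8.80 to 13.63 (0.21, adjusted p = 0.918). In each case the genotypes overlapped. The median of the members was -1.38.

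**Figure D4:**
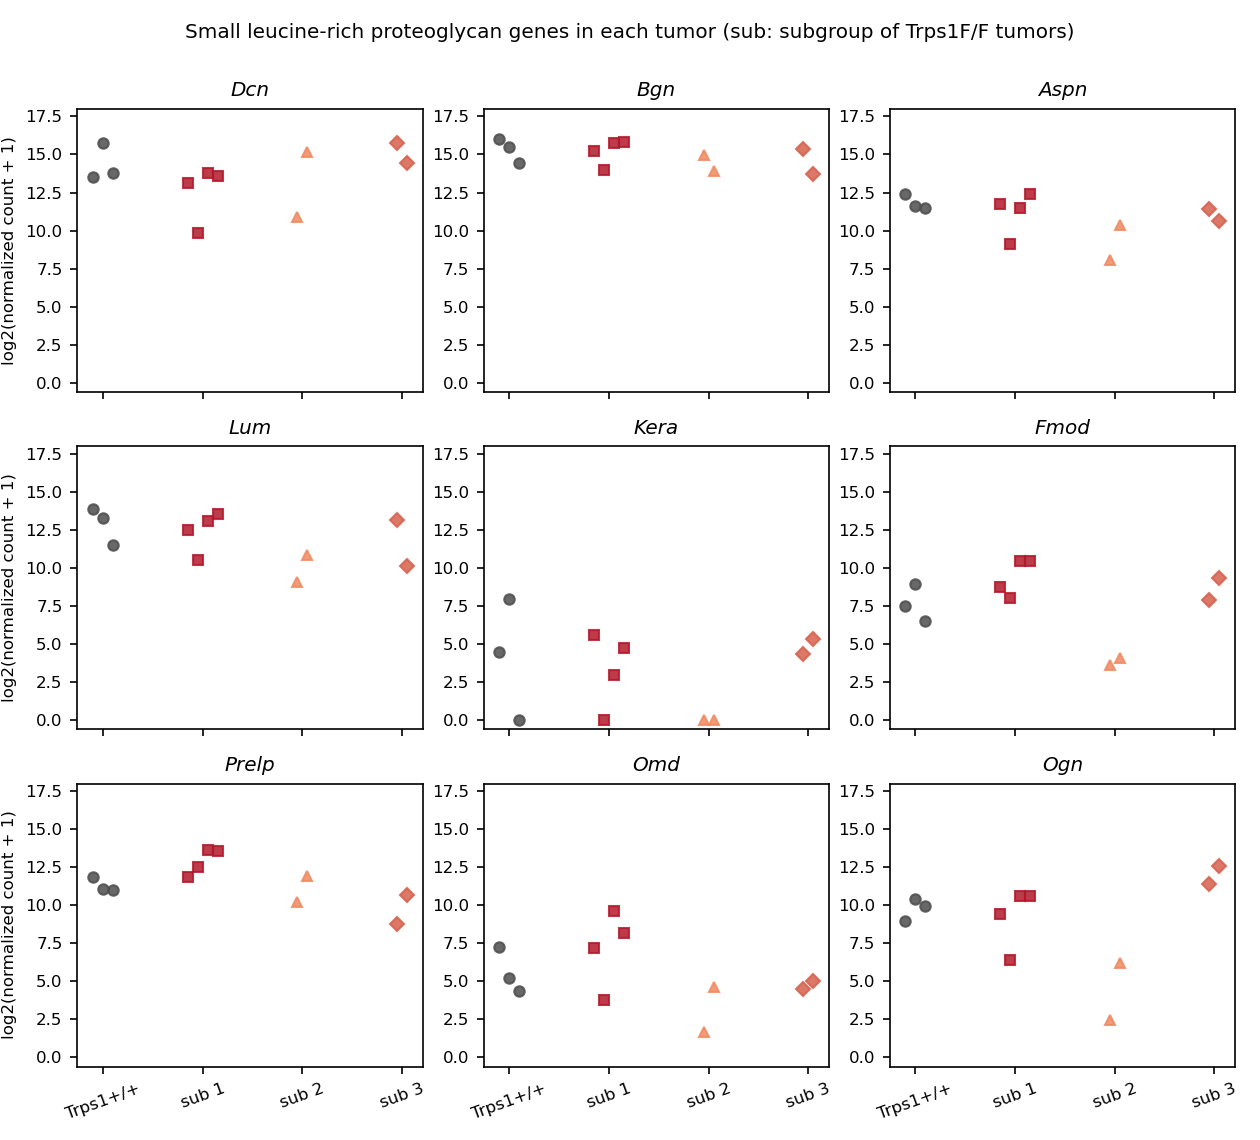
Level of each member in the 11 tumors, as log2(normalized count + 1), for Trps1+/+ and the 3 labelled subgroups of Trps1F/F, with 1 point per tumor. Fmod is at 3.61 and 4.06 in subgroup 2, under every other tumor, and Prelp reaches 13.63 in subgroup 1.

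Between subgroups of Trps1F/F tumors, 2 of the 9 members were called, Fmod and Prelp, a share near that of all genes (20.8%). How the subgroups were made is not given, so whether tests between them are independent of the grouping is not known. Fmod was at 7.52, 8.96 and 6.51 in Trps1+/+, at 8.75, 8.05, 10.48 and 10.48 in subgroup 1, at 3.61 and 4.06 in subgroup 2 and at 7.89 and 9.31 in subgroup 3. Prelp was at 11.84, 12.49, 13.63 and 13.54 in subgroup 1, at 10.23 and 11.94 in subgroup 2 and at 8.80 and 10.69 in subgroup 3. Both genes were on average higher in subgroup 1 than in subgroups 2 and 3, though single tumors overlapped. Mean Fmod over mice was 9.09 in subgroup 1, 8.60 in subgroup 3 and 3.84 in subgroup 2, so its difference came mostly from subgroup 2. The mouse with tumors in subgroups 1 and 3 entered the fit in each of them as separate units, and the p-values take no account of that. The difference of subgroup 1 from subgroups 2 and 3 was 2.87 for Fmod (SE 0.73, adjusted p = 0.0265) and 2.22 for Prelp (SE 0.61, adjusted p = 0.0350). Without the mouse that had tumors in subgroups 1 and 3, these were 1.83 (adjusted p = 0.148) and 1.28 (adjusted p = 0.180). Without subgroup 2 tumor 1 they were 2.76 (adjusted p = 0.0638) and 1.80 (adjusted p = 0.0869). Fmod also fell short without subgroup 1 tumor 1 (3.04, adjusted p = 0.0614) and with voom (3.02, adjusted p = 0.0871), and Prelp without subgroup 1 tumor 2 (2.30, adjusted p = 0.0799). Omd, at 2.64 (adjusted p = 0.178), passed only without subgroup 1 tumor 2 (4.07, adjusted p = 0.0449).

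Against Trps1+/+, no member passed in any subgroup by this fit. Subgroup 1, where 15.5% of all genes were called, had Fmod at 1.43 (adjusted p = 0.246) and Prelp at 1.32 (adjusted p = 0.206). In the authors' deposited table, subgroup 1 had Prelp at 1.67 (adjusted p = 0.0251) and Fmod at 1.79 (adjusted p = 0.0496). In subgroup 2, limma called 0% of 15871 genes, with 2103 at an unadjusted p under 0.05. There Ogn was at 2.46 and 6.18, against 8.98, 10.43 and 9.98 in Trps1+/+ (-5.48, unadjusted p = 0.00312, adjusted p = 0.199), and Fmod was at -3.83 (unadjusted p = 0.00198, adjusted p = 0.188). Lum (9.10 and 10.83) and Aspn (8.09 and 10.35) were also under the range of Trps1+/+, at -2.93 (adjusted p = 0.333) and -2.61 (adjusted p = 0.293). In the authors' deposited table for subgroup 2, 4 members had an adjusted p under 0.05: Fmod at -4.25 (adjusted p = 0.000461), Ogn at -4.66 (adjusted p = 0.00201), Kera at -8.86 (adjusted p = 0.0205) and Lum at -2.98 (adjusted p = 0.0464). In subgroup 3, where 0.00630% of genes were called, Ogn was at 11.41 and 12.56, above Trps1+/+ (2.19, adjusted p = 0.866), and Prelp was under it (-1.57, adjusted p = 0.828).

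The remaining members had no separation that passed. Bgn was the most even, between 13.73 and 16.04 in all 11 tumors. Dcn ran from 9.86 to 15.75, with its lowest value in subgroup 1 tumor 2. Omd ran from 1.70 to 9.65, and Kera had no reads in 4 tumors, including both of subgroup 2 and 1 of Trps1+/+. Per kilobase of exon, Trps1+/+ tumors had 7368 normalized counts of Bgn, 4632 of Dcn, 3801 of Lum, 1613 of Aspn and 736 of Prelp, and the ranges of Bgn, Dcn and Lum overlapped.

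Chad and Chadl, which encode the leucine-rich repeat protein chondroadherin and its relative, were also higher in subgroup 1. Chad was at 6.03 against Trps1+/+ (adjusted p = 0.0355) and at 8.04 against subgroups 2 and 3 (adjusted p = 0.00717). Chadl was at 4.99 (adjusted p = 0.0329) and 5.16 (adjusted p = 0.0182). Of all genes, 15.5% and 20.8% were called in either direction in these comparisons. The filter asked for 2 libraries, so a gene high only in subgroup 1 could be kept through that subgroup alone. Whether Chad and Chadl were kept in that way was not tested, so their calls may follow in part from the filter. Against Trps1+/+, Chad and Chadl each lost the call in 4 of the 6 fits that left out 1 mouse, with values of 4.91 to 7.82 for Chad (adjusted p = 0.0133 to 0.120) and 3.78 to 5.92 for Chadl (adjusted p = 0.0258 to 0.115). These were the fits without subgroup 1 tumor 1 or 2 or Trps1+/+ tumor 1 or 2 for Chad. For Chadl they were those without subgroup 1 tumor 1, the mouse in subgroups 1 and 3 or Trps1+/+ tumor 2 or 3. Against subgroups 2 and 3, Chad kept its call in all 6 (adjusted p = 0.0136 to 0.0312). Chadl lost it in 4 (adjusted p = 0.0504 to 0.0870), without subgroup 1 tumor 1, the mouse in subgroups 1 and 3, subgroup 2 tumor 1 or subgroup 3 tumor 2. With voom, Chad lost the call against Trps1+/+ (adjusted p = 0.0653) and Chadl lost both (adjusted p = 0.0977 and 0.0575). Luminal markers were also higher in subgroup 1, with 10 of 13 called against subgroups 2 and 3 (median 7.29) and 6 of 13 against Trps1+/+ (median 6.10). Their sum was 79724 to 293368 normalized counts in subgroup 1 and 10835 to 32058 in Trps1+/+. Of 17 fibroblast markers, 6 were lower in subgroup 1 than in Trps1+/+, with a sum of 53363 to 150188 against 247769 to 389582. Cdh1 RNA was at 12.75 to 13.74 in subgroup 1 and at 6.49 to 10.64 in the other tumors. The part of these markers in the values of Fmod and Prelp was not tested.

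In HC11 cells, which are epithelial, 3 members had enough reads to be tested after TSA, and all 3 were lower. Of 13035 genes, 41.6% were called lower and 85.2% in either direction. Prelp was at 9.06, 9.03 and 8.83 with DMSO and 6.69, 6.30 and 6.39 with TSA. Fmod was at 6.99, 7.22 and 7.19, and at 3.92, 4.82 and 4.94. Bgn was at 5.2, 5.37 and 5.61, and at 4.58, 4.69 and 4.07. No treated library overlapped a control for these genes. The differences were -2.51 for Prelp (SE 0.12, adjusted p = 1.29e-09), -2.57 for Fmod (SE 0.24, adjusted p = 8.61e-07) and -0.95 for Bgn (SE 0.23, adjusted p = 0.00205).

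Under DMSO the order of members in HC11 differed from organoids, with Prelp at 139 normalized counts per kilobase, Fmod at 42.2 and Bgn at 6.78. This order did not hold in the sgScr libraries, which were normalized separately. There Ogn came first at 7.84, and Prelp was at 0.979. In any of the 6 DMSO and TSA libraries, Lum, Aspn and Kera had at most 4 reads, and Dcn 5 to 13. Ogn had 13, 6 and 10 reads with DMSO and 4, 9 and 0 with TSA. Omd had 10 reads over the DMSO group and 1 over the TSA group, a ratio of 11.5 (1.64 to 499). Trps1 RNA was also lower, at 10.90 to 10.97 with TSA against 13.94 to 14.02.

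Of 13 collagen genes tested under TSA, 10 were lower and 2 higher (median -1.37), with Col1a2 at -3.66 and Col2a1 at -3.72. Of 9 proteases, 7 were lower and 1 higher, with the membrane-bound collagenase Mmp14 at -5.83. Of 3 further family members tested, 2 were higher and none lower, Podnl1 (1.94, but 0.07 with adjusted p = 0.840 after quantile normalization) and Ecm2. Summed fibroblast markers were alike in both arms, at 27256 to 29470 normalized counts with DMSO and 28790 to 29328 with TSA.

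In the guide RNA libraries, 2 of 8 members passed the filter on low values and were called, Prelp and Ogn, where 67.0% of 12552 genes were called in either direction. Prelp passed only through the libraries labelled sgTrps1 and Ogn only through sgScr, in each case the arm where it is high, so their differences follow in part from the filter and no test is given for them. Prelp had more reads in the libraries labelled sgTrps1, with 42 and 41 reads against 8 and 2 (levels of 4.53 and 4.47 against 2.64 and 1.5). The difference was 2.43. Ogn had fewer reads there, with 14 and 11 reads against 32 and 21 (3.07 and 2.74 against 4.46 and 4.34), a difference of -1.5. Fmod, with too few reads to be tested, had 14 and 13 reads against 0 and 2, a ratio of 9.22 (2.32 to 80.0). Lum, Dcn and Bgn had 0 or 1 read in each library, so differences between these arms were not detectable at this depth. Of 10 collagen genes, 4 were higher and 5 lower, with Col6a1 at 1.14 and Col1a2 at -4.59. As Trps1 RNA was not lower in the libraries labelled sgTrps1, these directions compare labelled arms.

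**Figure D5:**
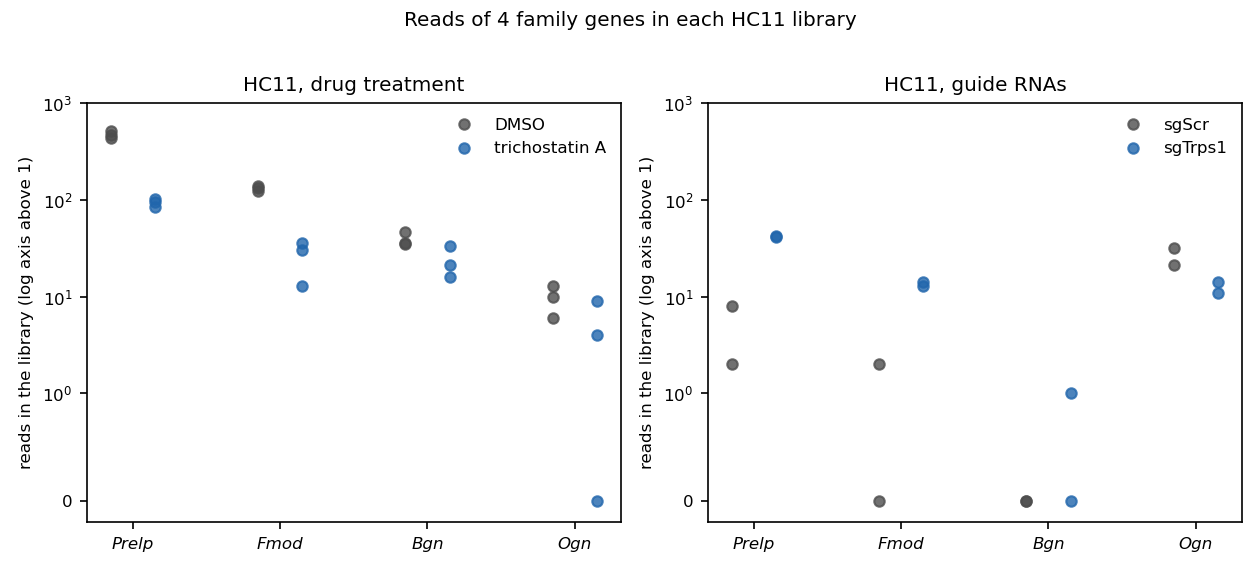
Reads of Prelp, Fmod, Bgn and Ogn in HC11 libraries on a log axis, for DMSO and TSA and for sgScr and sgTrps1, with 1 point per library. Prelp and Fmod lie lower in all 3 TSA libraries, and Prelp lies higher in both libraries labelled sgTrps1.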

How the data were processed

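RNA libraries were made with a TruSeq kit, per the labels' protocols, aligned to GRCm38 with TopHat and counted with HTSeq, per the submitters' processing notes. Their versions are not given in the sources used. Values are log2(normalized count + 1) as deposited by the authors, per the file headers, and whole reads could be recovered for 100% of the values, within 0.01 reads or a share of 1e-05. Tables were normalized separately, so tests stay within a table. Reads per library were 17809076 to 25614664 (TSA), 21374525 to 38773073 (guides), 14858175 to 30341897 (organoids) and 18320414 to 24225027 (tumors). Reads carry no molecular identifiers, so intervals and bounds cover counting error only. In 1 library, 3 reads correspond to 1.55 to 4.51 normalized counts.

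Tests were run on the log2 values with limma version 3.58.1 under R 4.3.3, using lmFit and eBayes with a trend. A gene was kept where its normalized count plus 1 was at least 10 in as many libraries as the smallest group has, and p-values were adjusted by Benjamini-Hochberg over the 12552 to 15871 kept genes. A total of 17 comparisons were made. Organoids were fitted with all 6 groups. Tumors were averaged per mouse, within a subgroup for subgroup tests, where the mouse in subgroups 1 and 3 entered both. Where a group had no reads, the bound uses 3 reads over the group. A fold change on the log2(value + 1) scale understates low genes. Log2 fold changes and adjusted p-values credited to the authors' deposited table were copied from it. Lists are described by counts and medians, with no test. The members and lists were chosen with earlier results of these data known. From each other list the text names up to 3 called genes with the smallest p per comparison, and by Pearson r the 5 genes most like a member. Symbols were placed with GENCODE M21. Of 12 organoid columns, 8 share a header with another, and their replicates are named a and b by position. Same-numbered libraries did not deviate together where numbers were known, so replicate numbers were not treated as pairs. The correlations were -0.084, -0.003 and -0.063 for TSA and -0.032 for Cdh1F/F;Trps1F/F organoids between days. In the guide libraries they were -0.193 for the same number and 0.193 for crossed numbers. With 2 libraries per group the second value mirrors the first by construction and adds nothing. Alternatives were other filters and pseudocounts, quantile normalization, a common median, limma's voom on the recovered reads, only the groups compared, each tumor as a sample, replicate blocks and leaving out each library or mouse. The model code was tested on simulated data.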

Additional observations from a re-analysis of the deposited data

Results flagged for a closer look

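The difference between Cdh1F/F;Trps1F/F and Trps1+/+ organoids differed between day 14 and day 28, by a test of the change itself, for Lum and Bgn. The change was -0.90 for Lum (limma adjusted p = 0.0486), which went from -2.22 at day 14 to -3.12 at day 28. It was -0.53 for Bgn (limma adjusted p = 0.0423), which went from -1.75 to -2.28. Each group had 2 libraries, and both values were negative whichever of the 8 libraries was left out, with a call for Lum in 2 of these fits and for Bgn in 1. The other 7 members did not pass this test. The 2 calls are a share near that of all genes, of which this test called 17.9%.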

How the results depend on the processing

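The count of members called was within 1.5 times the reported value in 184 of 206 alternatives. It moved in the following. Under TSA it was 5 with no filter on low values (3 as reported), and in the guide RNA libraries it was 0 with the stricter filter (2 as reported), since more or fewer members were then tested. For time in Cdh1F/F;Trps1F/F organoids it was 3 with voom (6). For the change of the Trps1F/F difference with day (2) it was 0 with no filter, 1 with pseudocount 8, 1 after quantile normalization, 1 with voom and 0 with only the groups compared, and for subgroup 1 against subgroups 2 and 3 it was 1 with voom (2). Leaving out 1 library or mouse gave 0 to 1 for time in Cdh1+/F organoids (2), 0 to 2 for the change with day, 0 to 2 for subgroup 1 against 2 and 3, 7 to 9 and 7 to 8 for Cdh1F/F;Trps1F/F against Trps1+/+ at days 14 and 28, 6 to 7 and 8 to 9 for Cdh1+/F organoids, 4 to 6 for time in Cdh1F/F;Trps1F/F and 4 to 5 in Trps1+/+. The causes were not tested.

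Directions turned for Fmod in Cdh1F/F;Trps1F/F against Trps1+/+ at day 28, with values from -0.70 to 0.85 as libraries were left out, and against Cdh1+/F organoids at day 14 (0.41 after quantile normalization, -0.41 to 0.018 as libraries were left out). They turned for Prelp in Cdh1F/F;Trps1F/F at day 28 (-0.35 to 0.091 as libraries were left out) and in Cdh1+/F organoids at day 14 (-0.018 with a common median, -0.073 to 0.11 as libraries were left out). None of these differences had been called.

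Over all genes, leaving out 1 library gave 3335 to 4305 calls for Cdh1F/F;Trps1F/F at day 14 (5145), 3747 to 5040 for Cdh1+/F organoids at day 14 (5755), 2364 to 3047 for time in Trps1+/+ (4104), 2851 to 5671 in Cdh1F/F;Trps1F/F (5613), 3793 to 5106 in Cdh1+/F organoids (6466) and 1047 to 3432 for the change with day (2845). In tumors it gave 1119 to 1991 for subgroup 1 (2467), 1974 to 3019 for subgroup 1 against 2 and 3 (3306), 0 to 13 for subgroup 2 (0), 0 to 27 for subgroup 3 (1) and 0 to 1 for the genotype (0). Subgroup 2 had 1 call with pseudocount 8, and subgroup 3 had 0 with the stricter filter or voom, 2 with pseudocount 8 or quantile normalization and 3 with each tumor as a sample.

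Quantile normalization moved the share of calls that were higher from 46.9% to 57.7% (Cdh1F/F;Trps1F/F against Cdh1+/F organoids, day 14), from 48.9% to 61.8% (the same, day 28) and from 53.7% to 41.8% (Cdh1+/F organoids against Trps1+/+, day 28), and a common median from 55.2% to 42.7% (subgroup 1 against 2 and 3). It shifted the median of all genes by 0.134 and -0.124 in these 2 comparisons at day 28 and by -0.148 in subgroup 1 against 2 and 3. A common median shifted it by -0.125 there and by 0.130 in subgroup 2.

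In the main fits replicate numbers were not treated as pairs. With a replicate block, TSA kept 3 members called (10979 genes) and the guide libraries 2 (8255 genes). With crossed guide numbers, added after seeing the data, the guide libraries had 2 (8814 genes, against 8413). These 2 guide members, Prelp and Ogn, passed the filter only through the arm where each is high. Their calls thus follow in part from the filter, with or without a block. The block on numbers in time of Cdh1F/F;Trps1F/F, also added later, called 4 members (6328 genes). The direct comparisons of the 2 floxed Trps1 organoid genotypes were likewise added. Depth limits Kera, Omd and Ogn in organoids, where groups of 0 to 8 reads give bounds or wide intervals.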
